A study of Homo sapiens with 26 samples.

Results

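CD28 is a single-pass receptor of the T cell surface, and here its fusion to APEX2 placed a labeling enzyme on the outer face of the plasma membrane of HEK293T, an established human embryonic kidney line. APEX2 is an engineered peroxidase that converts biotin-phenol, in the presence of hydrogen peroxide, into short-lived radicals that tag molecules close to it. Tagged RNA is then collected on streptavidin beads and sequenced, which is known as APEX-seq. The members described here are the 3 CD28 labeled and 3 CD28 control libraries, out of 26 libraries in all, and the genes with a log2 FPKM above 0 in at least 3 of these 6 libraries. FPKM counts fragments relative to exon length and library depth, so it is a level per length. Of 25745 genes, 19763 met this rule. The rule's edge held 1111 genes above 0 in exactly 3 of the 6 libraries, and 1036 genes above 0 in 2 libraries lay just outside it.

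All libraries came from HEK293T cells that stably expressed an APEX2 fusion. The outer-face constructs were CD28 and PDGFR, with 3 labeled and 3 control libraries each. The inner-face constructs were Lyn11, with 4 and 4, and Lck, with 3 and 3. For labeled and control samples alike the protocol lists 30 min of biotin-phenol, then hydrogen peroxide at 1 mM for 1 min, and it does not name the step that controls lacked. The sources used here also do not give whether each line was 1 clone or a pool, which promoter drove the fusion, or whether reads were counted by strand. The series calls its replicates biological. If the 3 libraries of a group came from 1 culture, the p-values would measure technical spread alone. In bulk libraries, fewer cells with an RNA and less of that RNA per cell cannot be told apart.

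U1 is the small nuclear RNA that starts splicing by pairing its 5′ end with the 5′ splice site of a pre-mRNA. U2, U4, U5 and U6 complete the major spliceosome, and U11, U12, U4atac and U6atac serve the minor one. The human genome carries several true U1 genes, a cluster of variant U1 genes on chromosome 1 and many pseudogenes, so a read from one copy may fit others. U3 is a nucleolar RNA that guides early processing of ribosomal RNA. U1, U2, U4 and U5 are made in the nucleus, assembled with proteins in the cytoplasm and returned to the nucleus.

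U1 copies and RNAs beside them made up most of the genes that rose, and their sequences are shown first. RNU1-1 (chr1:16514122-16514285, minus strand), RNVU1-15 (chr1:144412576-144412740, plus strand) and RNVU1-21 (chr1:148334612-148334767, minus strand) are from GENCODE 29 on GRCh38. The capitals mark bases 3 to 11, counted from the 5′ end, where U1 pairs with the splice site.
RNU1-1: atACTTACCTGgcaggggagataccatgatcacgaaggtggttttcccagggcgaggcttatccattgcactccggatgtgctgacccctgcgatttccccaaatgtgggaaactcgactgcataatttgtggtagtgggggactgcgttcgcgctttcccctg
RNVU1-15: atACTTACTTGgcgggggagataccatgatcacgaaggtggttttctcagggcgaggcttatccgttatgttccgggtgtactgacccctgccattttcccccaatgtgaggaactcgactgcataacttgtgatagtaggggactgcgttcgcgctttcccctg
RNVU1-21: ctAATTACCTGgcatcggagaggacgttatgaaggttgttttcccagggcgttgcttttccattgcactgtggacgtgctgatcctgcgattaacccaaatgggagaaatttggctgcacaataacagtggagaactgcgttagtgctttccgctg
Within the capitals RNVU1-15 differs from RNU1-1 by C9T and RNVU1-21 by C4A (the RNU1-1 base, its position, then the variant's base). Over the whole molecule RNVU1-15 was 89.1% identical to RNU1-1 and RNVU1-21 was 75%.

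RNU12 (chr22:42615244-42615393, plus strand, same source) is shown because it forms the first 150 bases of the 664-base transcript of a gene that rose, ENSG00000270022.
RNU12: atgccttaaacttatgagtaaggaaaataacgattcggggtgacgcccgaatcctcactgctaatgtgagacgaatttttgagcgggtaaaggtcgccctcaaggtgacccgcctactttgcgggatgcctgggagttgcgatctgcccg
Mature sequences of the microRNA genes called in either direction are from RefSeq on GRCh38.p14, with the seed (bases 2 to 8) in capitals. They lie at chr1:148334522-148334544 for the first and at chr16:21506101-21506122 and chr16:21506064-21506086 for the others, all on the minus strand.
hsa-miR-5087: gGGUUUGUagcuuugcuggcaug
hsa-miR-3680-5p: gACUCACUcacaggauugugca
hsa-miR-3680-3p: uUUUGCAUgacccugggaguagg
No 2 of these seeds were the same. RefSeq held a sequence for 222 of the 259 microRNA genes tested.

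The libraries were of similar depth within each group. The labeled libraries held 15.11 to 15.3 M recovered reads and the controls 11.48 to 13.51 M. Labeled replicate 2 stood apart. It had 3139 of the table's genes at 0 reads, against 176 and 793 in labeled replicates 1 and 3 and 226 to 1534 in the controls. Among the genes tested, 1362 were at 0 in replicate 2, and 323 of these had at least 10 reads in each control. Over genes, which do not count as replicates, its log2 values had a Pearson correlation of 0.765 to 0.832 with the other 5 libraries, while labeled replicates 1 and 3 correlated at 0.904. Control replicate 2 was also low, at 0.809 to 0.845 with the libraries other than labeled replicate 2. Results are given with and without labeled replicate 2.

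The CD28 gene checked the labels. CD28 log2 FPKM was 5.67, 4.86 and 5.47 in the labeled libraries and 5.32, 4.93 and 5.83 in the controls, from 1857 to 3591 reads. Both groups overlapped, with a difference of -0.03 ± 1.13 (SE), and every library of the other constructs had at most 1 CD28 read. That SE is from the fit to all 26 libraries and is not the spread of the CD28 libraries. Their SD was 0.42 in the labeled and 0.45 in the control group. Reads of the fusion's mRNA and of the resident gene cannot be told apart. Of 8 markers linked to HEK293T, 6 had a mean log2 above 0, and their FPKM summed to 108 to 130 in the labeled libraries and 88.6 to 111 in the controls. NEFH and EPCAM were below that level. Of 12 T cell markers 5 were in the table and 1, CD4, had a mean above 0. The T cell sum was 1.70 to 4.16 FPKM in labeled and 2.28 to 2.65 in control libraries. Markers of fibroblasts summed to at most 7.83 FPKM, mostly COL1A1, and those of epithelium, endothelium, macrophages and erythroid cells to at most 2.12.

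CD28 labeling changed 18 genes at an adjusted p under 0.05 in limma's moderated test, or 0.0911% of those tested, and 9 of them rose (0.0455%) while 9 fell (0.0455%). Without labeled replicate 2 the count was 31 (0.157%), with 14 higher (0.0708%) and 17 lower (0.086%). Of the first 18 genes, 17 were also called without it, and ENSG00000240861 was lost at an adjusted p of 0.0772. At an unadjusted p under 0.05 stood 622 higher (3.15%) and 1088 lower genes (5.51%), and 664 (3.36%) and 712 (3.6%) without replicate 2. The count depended on how the spread was estimated, and no gene passed with the 6 CD28 libraries fitted alone, where 1340 had an unadjusted p under 0.05. With each library centred on its median the calls were 12 higher and 7 lower, and with quantile normalization 11 and 7. The filter let 2 of the 18 through on the labeled libraries alone and 2 on the controls alone, so those 4 had to differ in the direction found, and their p-values are descriptions. They are RNU1-2 and CNNM3-DT, with every control below a log2 of 0, and RNU6-1176P and ENSG00000237387, with every labeled value below it.

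Of the 9 genes that rose, 4 were U1 genes, and 3 others contained or adjoined a small nuclear RNA gene. The true U1 gene RNU1-2 (chr1:16895980-16896143) had 18, 33 and 33 reads in the labeled libraries and 1, 0 and 0 in the controls. Its log2 FPKM was 2.98, 3.87 and 3.81 against -0.40, -1.67 and -1.67. Every labeled library lay far above every control. The fitted difference was 4.80 ± 0.67 (limma, adjusted p = 0.00815), and 4.64 without replicate 2, in a direction that the filter fixed. With 1 control read that value depends on the prior count, and the ratio of summed reads, scaled to library totals, was 67.7 (95% exact counting interval 11.8 to 2707). RNU1-2 lies within CROCC, the gene of the ciliary rootlet protein rootletin, whose own difference was -0.21.

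RNU1-1 had 31, 20 and 53 labeled reads and 1, 0 and 4 control reads, a difference of 4.09 ± 0.68 (limma, adjusted p = 0.0152) and 4.41 without replicate 2. RNU1-3 (chr1:16666785-16666948) had 17, 14 and 30 against 1, 0 and 2, and rose by 3.65 ± 0.65 (limma, adjusted p = 0.0237; 3.85 without replicate 2). Both groups were apart for each gene. RNU1-1, RNU1-2, RNU1-3, RNU1-4, RNVU1-18, RNVU1-29, RNU1-27P and RNU1-28P have identical sequences, so which copy a read came from is uncertain and these genes are not independent. The variant gene RNVU1-15 does not share that sequence. It had 401, 334 and 265 labeled reads and 57, 30 and 81 control reads, and log2 FPKM of 7.39, 7.18 and 6.78 against 4.66, 3.90 and 5.32. RNVU1-15 rose by 2.49 ± 0.39 (limma, adjusted p = 0.00971), and by 2.46 without replicate 2.

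All 22 U1 genes in the table met the rule. In 17 of them every labeled value lay above every control, against 7.76% of all genes tested. In none did every labeled value lie below, against 6.39%. A positive difference was found in 19, beside 10687 of the 19763 genes tested. The median difference was 2.20, or 2.29 without replicate 2, where the median of all genes tested was 0.04 and 0.07. Under the planned scalings, filters, weights and voom the median was 2.02 to 2.29, and leaving out 1 library gave 1.91 to 2.34. Without replicate 2 all labeled values again lay above all controls in 17 U1 genes, against 13.3% of all genes, and below in none, against 8.64%. RNVU1-29 and RNVU1-27 were called as well when that library was left out. RNVU1-29 had 257, 166 and 223 reads against 46, 58 and 27, with a difference of 2.17, and 2.33 without replicate 2 (limma, adjusted p = 0.0722 and 0.0293). RNVU1-27 had 444, 257 and 390 reads against 122, 78 and 132, with 1.55 and 1.76 (adjusted p = 0.12 and 0.0377). In both, the lowest of the labeled values was that of replicate 2.

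The other U1 genes did not pass, and most had the same layout. RNVU1-21, the variant printed above, had 58, 82 and 58 reads against 11, 17 and 5 and a difference of 2.48 (adjusted p = 0.12). RNVU1-4 had 74, 170 and 107 against 14, 2 and 23, a difference of 3.35 with a standard error of 0.84. RNVU1-1 had the lowest difference, -1.63 ± 1.43, on 0 to 16 reads. The 9 bases ACTTACCTG stood at bases 3 to 11 in 12 of the 22 genes, whose median difference was 2.22, and the other 10 had 2.21. Searched on the transcript strand only, ACTTACCTG was found in 50 of 1900 GENCODE small nuclear RNA transcripts (2.63%). These are descriptions of the genes and not of pairing.

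U1 pseudogenes, copies annotated as not functional, were the comparison for the U1 genes. The 2 lists differed in level, with a median mean log2 FPKM of 1.74 for the pseudogenes and 3.76 for the U1 genes. The part of level in their contrast was not tested. Of the 12 listed genes, all tested, 2 had every labeled value above every control, beside 7.76% of all genes. These were RNU1-27P and RNU1-28P, the pair identical to RNU1-1. RNU1-28P had 73, 46 and 92 reads against 17, 23 and 10, and a difference of 1.89 that missed the threshold (adjusted p = 0.186). RNU1-27P had 30, 18 and 24 reads against 5, 1 and 3. RNU1-129P alone had every labeled value below every control (difference -0.94), beside 6.39% of all genes, and the median over the 12 was -0.20.

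**Figure D1:**
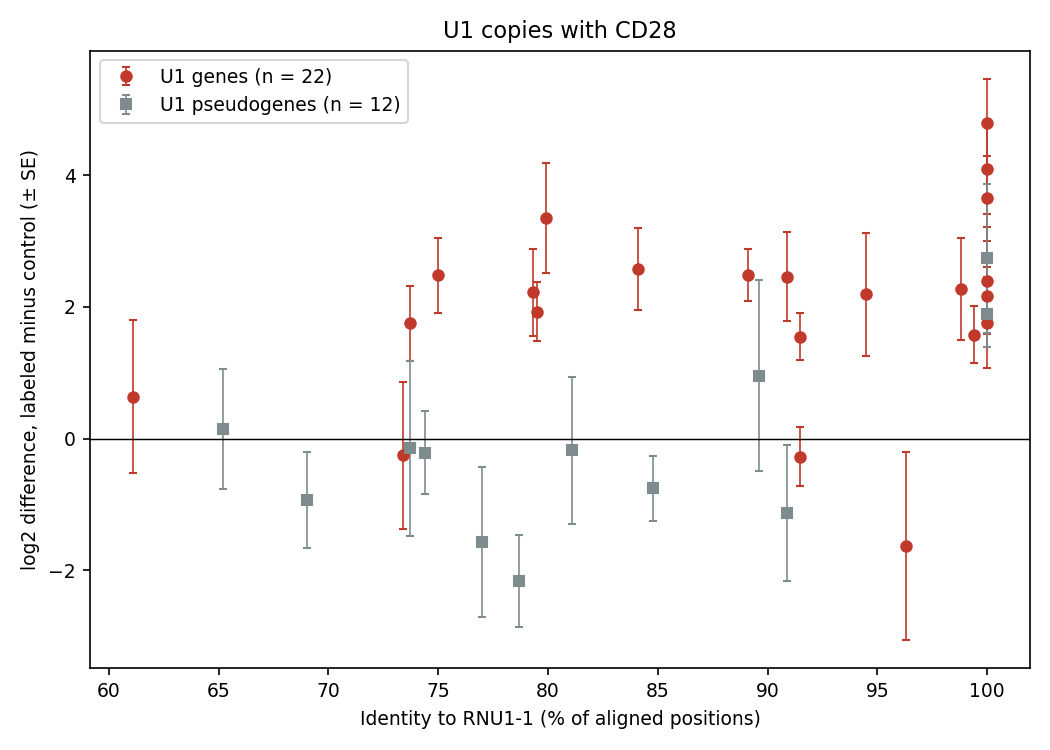
Difference in log2 FPKM, CD28 labeled minus control (vertical axis, bars are standard errors of the fit), against the identity of each copy to RNU1-1 in percent of aligned positions, for 22 U1 genes and 12 U1 pseudogenes. Of the U1 genes, 18 lie between 1.55 and 4.80, from 73.7% to 100% identity, while pseudogenes other than the 2 identical copies lie between -2.17 and 0.95.

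Among the other genes that rose, 2 have no symbol and were chosen after their values were seen, and each holds or overlaps a small nuclear RNA gene. ENSG00000270022 (chr22:42615244-42615907), which begins with RNU12, had 278, 348 and 436 reads in the labeled libraries and 32, 5 and 21 in the controls. It rose by 4.30 ± 0.66 (limma, adjusted p = 0.00815), and by 4.28 without replicate 2. Reads from the minor-spliceosome RNA U12 and from the longer transcript cannot be told apart here. ENSG00000276216 (chr1:145281116-145281462) overlaps the U1 variant RNVU1-14 on the same strand. It had 461, 317 and 364 reads against 68, 86 and 72, and rose by 2.16 ± 0.33 (limma, adjusted p = 0.00815; 2.26 without replicate 2).

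MIR5087 (chr1:148334479-148334554) is a microRNA gene 58 bp downstream of RNVU1-21 on the same strand and within the long non-coding RNA gene LINC01138. Its reads numbered 118, 181 and 86 in the labeled libraries and 10, 10 and 13 in the controls. MIR5087 rose by 3.25 ± 0.47 (limma, adjusted p = 0.00815), and by 2.95 without replicate 2, where replicate 2 had been the highest library. LINC01138 itself differed by 0.48 ± 0.30 and was not called. The fragment size of the libraries is not known from the labels, so the counts are reads over the locus and not a measure of mature hsa-miR-5087. Of the 270 microRNA genes measured, 259 were tested, and 1 rose and 1 fell, beside 0.0455% each way over all genes. The median of the 259 was -0.47, or -0.10 without replicate 2.

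Outside the small nuclear RNA loci, CNNM3-DT and THUMPD3-AS1 rose. CNNM3-DT (chr2:96812239-96813657), a divergent transcript of the metal transporter gene CNNM3, had 15, 18 and 11 reads against 1, 2 and 3. The filter fixed its direction too. The difference was 2.41 ± 0.43 (limma, adjusted p = 0.0237; 2.24 without replicate 2), while CNNM3 differed by -0.03. THUMPD3-AS1 (chr3:9349689-9398579) had the deepest counts of the genes that rose, with 1310, 1136 and 1189 reads against 715, 717 and 627. Its log2 FPKM was 3.85, 3.69 and 3.70 against 3.05, 3.20 and 3.01, and it rose by 0.66 ± 0.12 (limma, adjusted p = 0.0322; 0.69 without replicate 2). The groups did not overlap. THUMPD3, which lies on the opposite strand within it and encodes a tRNA methyltransferase, differed by 0.50 and was not called, and without strand the pair cannot be separated.

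**Figure D2:**
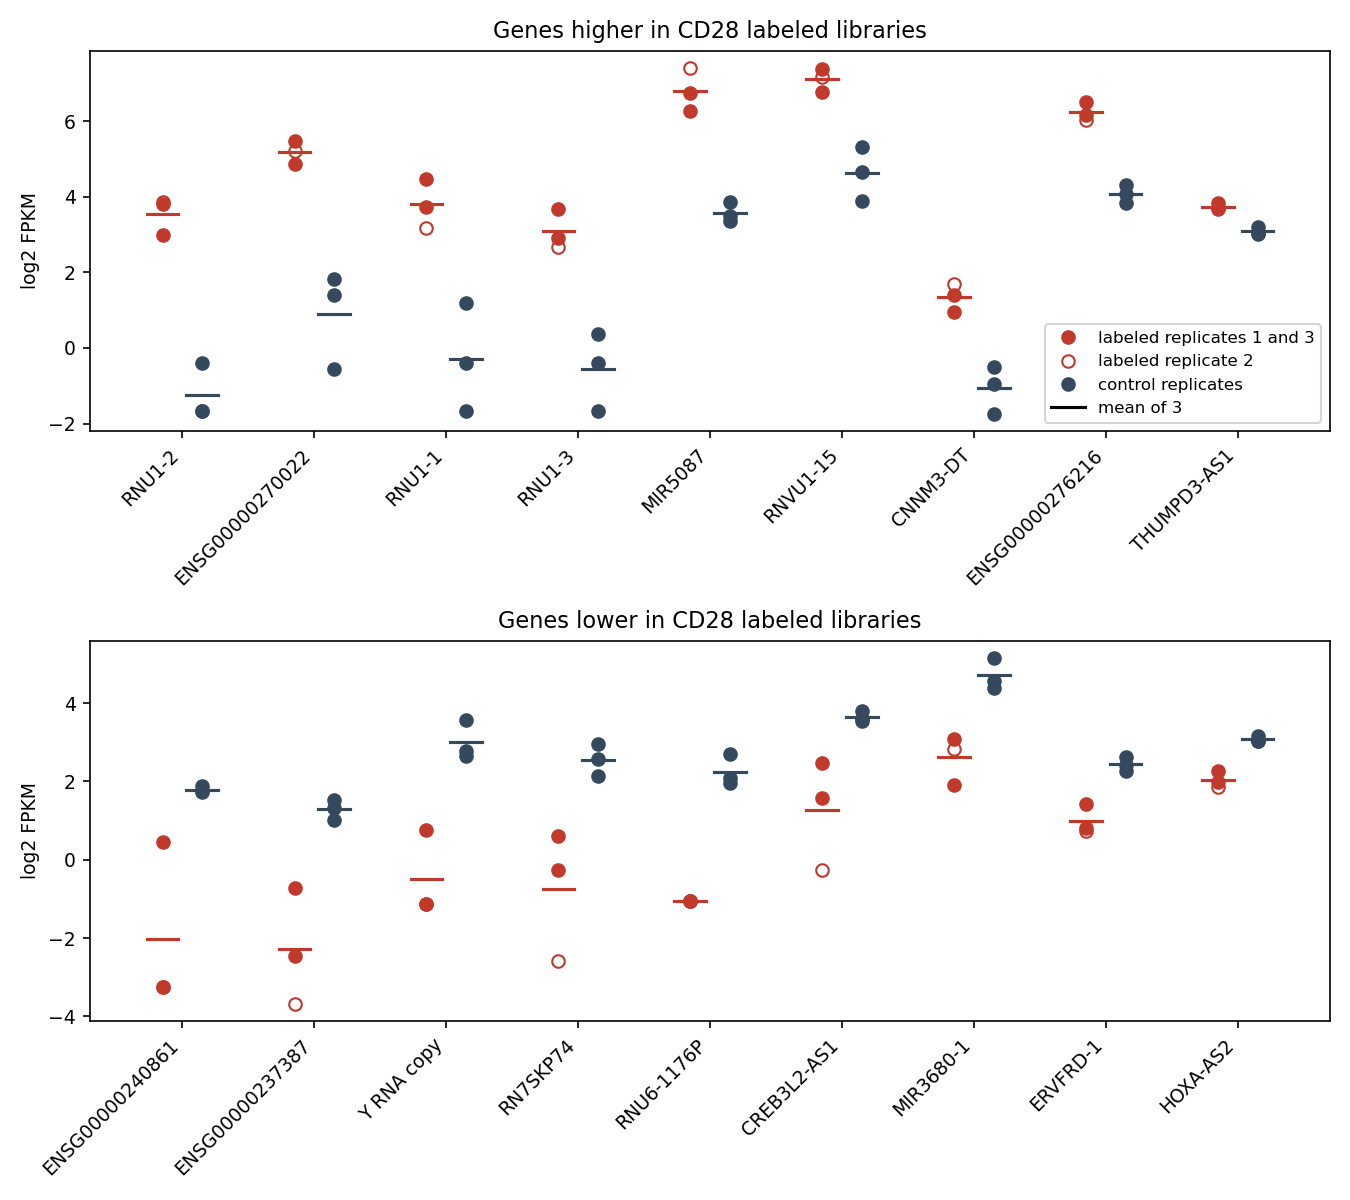
Log2 FPKM of the 18 genes called, in each of the 3 labeled and 3 control CD28 libraries, with the genes that rose above and those that fell below; bars are means of 3 and open circles are labeled replicate 2. In every gene the labeled and control libraries are apart, and the open circle is the lowest or joint lowest point of several genes that fell.

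Beyond U1, the other spliceosomal RNAs were not called, although most had higher labeled values. Of the U2, U4 and U5 genes listed, 6 were in the table and tested. All 6 differences were positive, beside 10687 of the 19763 genes tested. On the higher side 5 had an unadjusted p under 0.05, beside 3.15% of all genes. In 3 every labeled value lay above every control, beside 7.76% of all genes. The median of the 6 was 2.99, or 3.74 without replicate 2, so that library moved it. RNU4-2, a U4 gene, had 137, 112 and 76 reads against 21, 13 and 20, with a difference of 2.37 ± 0.68 and an adjusted p of 0.252. RNU5B-1, a U5 gene, had 51, 55 and 45 reads against 6, 0 and 11, with 3.63 ± 1.14. RNU5F-1 overlapped between the groups because control replicate 3 had 34 reads and the other controls 0. RNU4ATAC of the minor spliceosome had 30, 20 and 11 reads against 3, 3 and 8, and a difference of 1.84.

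Families were also summed over all copies, in RPM (reads scaled to each library's recovered total). The 22 U1 genes took 175, 161 and 160 RPM in the labeled libraries and 38.4, 44.8 and 58.1 in the controls. The 7 U5 genes and copies took 19.6, 13.6 and 18.1 against 3.19, 1.5 and 7.53. The 4 U3 genes took 125, 84.3 and 124 against 45, 47.2 and 50.4. In these 3 families the groups were apart, and labeled replicate 2 was the lowest labeled library for U5 and U3. An exact two-sided permutation test of 3 against 3 cannot go below p = 0.1, which each of them reached. The 9 U2 and the 16 U4 genes and copies overlapped between the groups, with log2 ratios of 0.26 and 0.48, and the RNA of the signal recognition particle, 7SL, was at 5429, 5200 and 8418 RPM against 5894, 8967 and 6123 RPM over 148 copies, also with overlap.

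U3 itself was not called gene by gene. SNORD3B-1 had 236, 183 and 289 reads against 83, 43 and 49, and a difference of 1.88 ± 0.46 (limma, adjusted p = 0.151, and 0.0814 without replicate 2). SNORD3B-2 had 942, 780 and 1105 against 335, 393 and 246, and a difference of 1.39. Of the 4 U3 genes 3 had every labeled value above every control, beside 7.76% of all genes. SNORD3A overlapped because control replicate 3 had 240 reads. The 144 other nucleolar and Cajal body RNAs tested, of 145 in the table, had none called, a median of -0.10 and 8 higher and 13 lower without overlap, beside 7.76% and 6.39% of all genes. Without replicate 2 the median was 0.17, so its sign rests on that library, with 18 higher and 17 lower, beside 13.3% and 8.64% of all genes.

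U6 copies, most of them pseudogenes of the catalytic spliceosomal RNA, had lower labeled values. The 186 U6 copies took 110, 107 and 105 RPM in the labeled libraries and 140, 199 and 156 in the controls, a log2 ratio of -0.62 with no overlap (exact permutation p = 0.1, the smallest possible). Gene by gene, 185 were tested, 1 fell and none rose, beside 0.0455% each way over all genes. Of the 185, 126 were negative, beside 9076 of the 19763 genes tested. On the lower side 21 had an unadjusted limma p under 0.05, beside 5.51% of all genes. The median was -0.63, and -0.31 without replicate 2. RNU6-1176P (chr1:65022968-65023074) had no labeled read and 5, 8 and 5 control reads. Counting the labeled group at its limit of 3 reads, it was at least 7.44-fold lower, and limma gave an adjusted p of 0.039, or 0.0293 without replicate 2. It passed the filter through the controls alone and could differ in this direction only.

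The other genes that fell were pseudogenes, antisense RNAs, a microRNA gene and 1 protein-coding gene. MIR3680-1 (chr16:21506049-21506135) had 10, 8 and 4 reads in the labeled libraries and 42, 22 and 25 in the controls. Its log2 FPKM of 3.09, 2.84 and 1.90 lay below the control values of 5.15, 4.39 and 4.57. It fell by 2.09 on the log2 scale (SE 0.32; limma, adjusted p = 0.00815), with -2.21 without replicate 2. It lies within SMG1P3, a transcribed copy of the kinase gene SMG1, which differed by -0.49 and was not called. As for MIR5087, these are reads over the locus.

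HOXA-AS2 (chr7:27107777-27134302) is an antisense RNA of the HOXA cluster, the homeobox genes that set position along the body axis. It had 303, 269 and 369 reads against 596, 537 and 580, and log2 FPKM of 1.99, 1.86 and 2.26 against 3.03, 3.03 and 3.15. HOXA-AS2 changed by -1.03 ± 0.17 (limma, adjusted p = 0.0157; -0.95 without replicate 2), with every labeled library below every control. Its overlapping neighbour HOXA-AS3 differed by -1.26 ± 0.27 (adjusted p = 0.0834, and 0.0772 without replicate 2). On the opposite strand HOXA3 differed by -0.64 and HOXA4 by -0.74, neither called, and for these 2 also every labeled value lay below every control. Strand was not given, so these genes may share reads that cannot be assigned.

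CREB3L2-AS1 (chr7:137953348-137957966) had 24, 6 and 46 reads in the labeled libraries and 95, 99 and 82 in the controls. It changed by -2.38 ± 0.42 (limma, adjusted p = 0.0237) and by -1.62 without replicate 2, its lowest library. CREB3L2, a membrane-anchored transcription factor gene on the opposite strand, differed by 0.12. ERVFRD-1 (chr6:11102489-11111732) encodes syncytin-2, a fusogenic envelope protein of retroviral origin known from placenta, and was the single protein-coding gene called. It had 81, 75 and 126 reads against 274, 194 and 213, and changed by -1.45 ± 0.28 (limma, adjusted p = 0.0374; -1.32 without replicate 2). SMIM13 on the opposite strand differed by 0.25.

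The rest of the genes that fell had few reads. RN7SKP74 (chr20:18295143-18295451), a copy of the 7SK RNA that holds back the elongation factor P-TEFb, had 6, 0 and 3 reads against 18, 22 and 29 and changed by -3.30 (limma, adjusted p = 0.0322; -2.39 without replicate 2). A Y RNA copy within MCM8 (chr20:5964538-5964650) had 2, 0 and 0 against 9, 16 and 9, a ratio of summed reads of 21.1 in favour of the controls (95% exact counting interval 5.4 to 181; limma adjusted p = 0.0237, and 0.0357 without replicate 2). The genes without a symbol, chosen after their values were seen, were ENSG00000237387, antisense to the kinase gene GRK3, and ENSG00000240861, a processed pseudogene opposite GLG1. ENSG00000237387 had 5, 0 and 1 reads against 22, 16 and 23, with -3.58 and -2.89 without replicate 2, in a direction that the filter fixed. ENSG00000240861 had 9, 0 and 0 reads against 22, 22 and 20, with -3.81 and -3.20.

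Leaving out labeled replicate 2 added 14 genes to the calls, 5 higher and 9 lower. Beside the 2 U1 genes given above, the higher ones were SNHG12, IL12RB2 and EGR1. SNHG12, whose introns carry small nucleolar RNAs, had 1468, 1119 and 1615 reads against 824, 540 and 565, and its groups were apart with or without the library. Its difference was 0.97 ± 0.21 (limma, adjusted p = 0.0851), and 1.11 without replicate 2 (adjusted p = 0.0187). IL12RB2, a subunit of the interleukin 12 receptor, had 871, 470 and 816 reads against 424, 317 and 419. Its difference was 0.69 and then 0.96 (adjusted p = 0.333 and 0.0377). The immediate early gene EGR1, whose low mean put it outside the naming rule and which was chosen after its values were seen, had 97, 45 and 133 reads against 14, 43 and 8. EGR1 differed by 2.09 (adjusted p = 0.112) and by 2.51 without replicate 2 (adjusted p = 0.0247), because replicate 2 lay within the range of the controls.

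Among the 9 added lower genes, H2AZP3 and RPL35AP16 are pseudogenes of a histone and of a ribosomal protein. H2AZP3 had 6, 21 and 3 reads against 28, 23 and 33, so replicate 2 was the library closest to the controls, and -1.95 became -2.67 (limma, adjusted p = 0.142 and 0.00499). RPL35AP16 had 24, 0 and 8 against 48, 77 and 41, and there -3.48 became -2.05 while its adjusted p fell from 0.0865 to 0.0471. A 7SK copy on chromosome 11 had 7, 19 and 2 reads against 18, 51 and 24, with -2.10 and then -2.82 (adjusted p = 0.202 and 0.0184). The other 6, chosen after their values were seen, were EFCAB15P, OXA1L-DT and 4 genes without a symbol, with differences of -1.73 to -3.44 without the library.

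**Figure D3:**
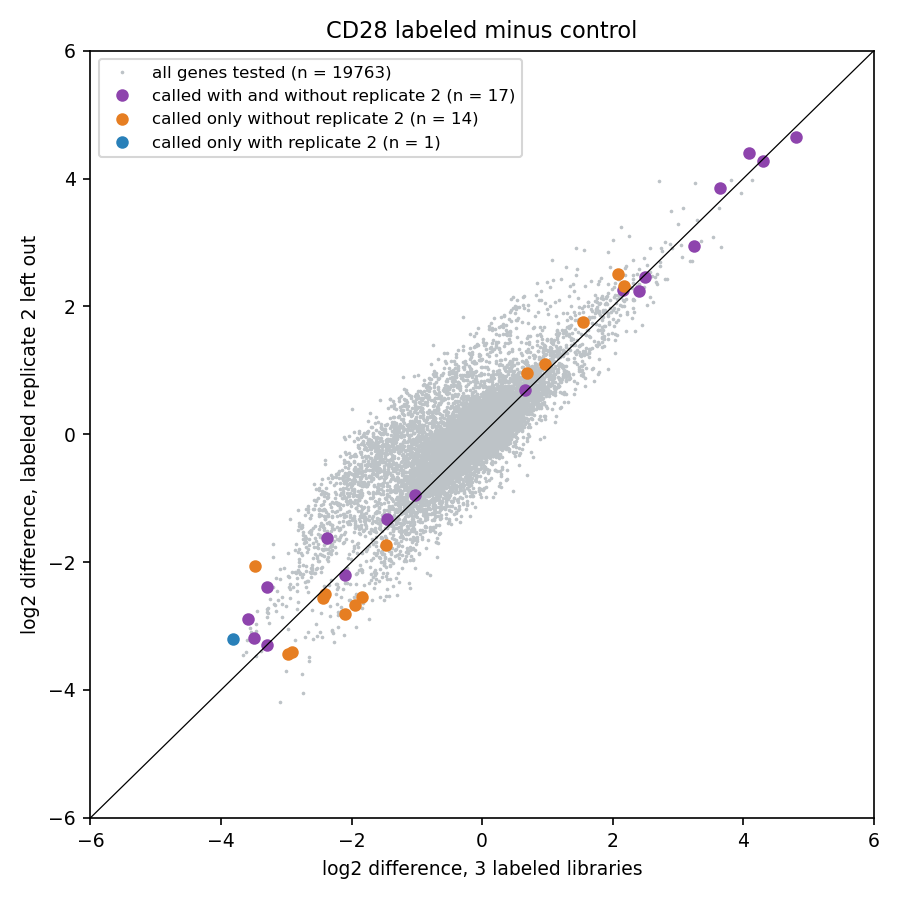
Difference in log2 FPKM, CD28 labeled minus control, from 3 labeled libraries (horizontal axis) and with labeled replicate 2 left out (vertical axis), for 19763 genes; the line marks equal values. Of the genes marked, 17 are called both ways, 14 without the library alone and 1 with it alone; among the 17, RN7SKP74 (-3.30 and -2.39) and CREB3L2-AS1 (-2.38 and -1.62) lie off the line.

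Gene lists were read by the count of members called and by their median, beside 0.04 over all genes tested. Under the other scalings the median of all genes was 0.12 with median centring, 0.04 with quantile normalization and -0.12 under voom. Counts of members above or below every control stand beside 7.76% and 6.39% of all genes. Counts of positive members stand beside 10687 of the 19763 genes tested. Level matters for this reading: in 10 bins of protein-coding genes by mean log2, the median difference was 0.18 in the bin below the highest and 0.25 in the highest, where several of the lists lie. The 79 cytosolic ribosomal protein mRNAs had none called, and 78 of them had a positive difference. In 25 every labeled value lay above every control (7.76% of all genes) and in none below (6.39%). Their median was 0.39, or 0.47 without replicate 2, and 0.14 to 0.48 under the other scalings. The most abundant, RPL7A, had log2 FPKM of 9.64, 9.72 and 9.82 against 9.69, 9.11 and 9.37 and overlapped. The 404 tested ribosomal protein pseudogenes, of 463 in the table, had a median of -0.31, or -0.06 without replicate 2, and 12 higher and 48 lower without overlap. Without replicate 2 these were 38 and 56, beside 13.3% and 8.64% of all genes, with 1 called lower, beside 0.086%.

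CD28 reaches the surface through the endoplasmic reticulum, whose chaperones fold new membrane proteins. Of 26 genes of these chaperones and of the translocon none was called. Positive were 25, beside 10687 of the 19763 genes tested, and 8 lay above every control, beside 7.76% of all genes. The median was 0.30 (0.26 without replicate 2; 0.09 to 0.39 under other scalings). HSPA5, the chaperone BiP, had log2 FPKM of 7.90, 7.81 and 7.81 against 7.55, 7.32 and 7.57, with no overlap and a difference of 0.36 ± 0.13 (limma, adjusted p = 0.414). MANF, a secreted stress-response factor, had 5.37, 5.19 and 5.31 against 4.87, 4.46 and 4.77, a difference of 0.59 that missed the threshold too (adjusted p = 0.333). Golgi enzymes (19 genes, median 0.12), secreted proteins (16, 0.16) and adhesion and surface antigens (23, 0.16) had none called. Under voom, where the median of all genes was -0.12, their medians were -0.03, 0.00 and -0.00.

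The lists of plasma membrane protein mRNAs had none called. The 24 cell-surface receptors had 1 above every control and a median of 0.09, which was -0.05 with quantile normalization. TFRC, the transferrin receptor, had log2 FPKM of 5.78, 6.10 and 5.40 against 5.36, 5.48 and 5.73, and NOTCH2 5.15, 4.99 and 5.05 against 4.94, 4.90 and 4.92. The 17 solute carriers and ion pumps were all positive, beside 10687 of the 19763 genes tested, with none without overlap. Their differences went from 0.00 to 0.32, with a median of 0.20, which was -0.05 with quantile normalization. Of the 13 CD28 partner and signalling genes listed 5 were tested, none was called, and GRB2, the adaptor that binds the CD28 tail, differed by 0.28 ± 0.19.

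Stress and response genes gave values of both signs. Of 25 immediate early genes tested, of 34 in the table, none was called, 9 lay above and 1 below every control (7.76% and 6.39% of all genes), and the median was 0.27 (0.22 without replicate 2, where EGR1 was called, and 0.10 under voom). JUN had log2 FPKM of 6.02, 5.99 and 6.22 against 5.61, 5.48 and 5.34, with no overlap and 0.60 ± 0.18 (limma, adjusted p = 0.296). HEXIM1, which with 7SK RNA holds P-TEFb inactive, had 5.37, 5.18 and 5.59 against 4.93, 4.58 and 4.35, with 0.76 ± 0.18 (adjusted p = 0.129, and 0.0547 without replicate 2). Heat shock proteins (10 genes, median 0.39) had none called, and 5 lay above every control, beside 7.76% of all genes. Those above included HSPD1 and HSPE1, which encode chaperonins of mitochondria and not of the cytosol. NRF2 targets (13, 0.27) and integrated stress response genes (13, 0.28) had none called either. Under voom the medians of these 3 lists were 0.23, 0.12 and 0.12, and heat shock proteins were at 0.17 with quantile normalization. TXNIP, which binds thioredoxin, had 2.88, 2.65 and 2.68 against 3.14, 3.41 and 3.51, with no overlap and -0.61 ± 0.18 (adjusted p = 0.255).

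Nuclear long RNAs and mitochondrial RNAs had none called. Of the nuclear-retained RNAs MALAT1 had log2 FPKM of 8.15, 8.36 and 8.47 against 7.96, 8.71 and 8.19 and overlapped. NEAT1, the scaffold of paraspeckles, had 5.35, 4.21 and 6.12 against 6.48, 6.77 and 6.41, every labeled value lower, with -1.33 ± 0.41 (limma, adjusted p = 0.317) and -0.82 without replicate 2. The 13 mitochondrial mRNAs had a median of -0.03 that became 0.74 without replicate 2, so their direction rests on that library, and it was 0.06 with median centring, -0.44 with quantile normalization and -0.18 under voom. Of the mitochondrial mRNAs, MT-ND6 had 10.65, 8.49 and 10.61 against 9.49, 9.59 and 9.39. The 2 mitochondrial rRNAs were both positive, with a median of 1.35, and 1.40 without replicate 2. Neither was called, and both overlapped between the groups. MT-RNR1 had 196, 102 and 80 reads against 25, 32 and 104 (1.24 ± 1.28), and MT-RNR2 had 280, 116 and 58 against 17, 31 and 119 (1.45 ± 1.34). Replication-dependent histones (50 genes) had a median of -0.00, and nuclear genes of oxidative phosphorylation (88) one of 0.22 with 17 above and 4 below every control (7.76% and 6.39% of all genes), and 0.07 under voom and under quantile normalization.

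Across annotated classes, protein-coding genes leaned higher and most others lower, beside 7.76% above and 6.39% below over all genes. Of 12060 protein-coding genes 10.2% lay above every control and 2.23% below, while of 1891 antisense genes 3.17% lay above and 14.6% below. Sense-intronic genes, 469 in number, were at 2.99% and 18.3%. Processed transcripts (127 genes) were at 3.94% and 22%, processed pseudogenes (1996) at 3.46% and 12.6%, and long intergenic RNAs (927) at 5.61% and 10.8%. Small nuclear RNA genes (10.5% and 9.83%) and small nucleolar RNA genes (7.03% and 7.57%) had near-equal shares. Their medians were -0.42 and -0.17, or -0.17 and 0.14 without replicate 2. At a mean log2 of 1 to 3, small nuclear RNA genes were at 4.62% and 11.3%, with a median of -0.66 (-0.19 without replicate 2). The median difference was 0.11 for protein-coding, -0.36 for antisense and -0.47 for sense-intronic genes. Named antisense genes had 694 of 1094 tested, with 1 that rose and 2 that fell (0.0455% each way over all genes), and 18 above against 105 below every control. Without replicate 2, where 13.3% of all genes lay above and 8.64% below, the shares were 16.1% and 3.66% for protein-coding genes. For antisense genes they were 7.72% and 18.7%, and the medians of these 2 classes were 0.10 and -0.14. Under voom, where the median of all genes was -0.12, the protein-coding median was -0.04, so its sign holds only relative to all genes.

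**Figure D4:**
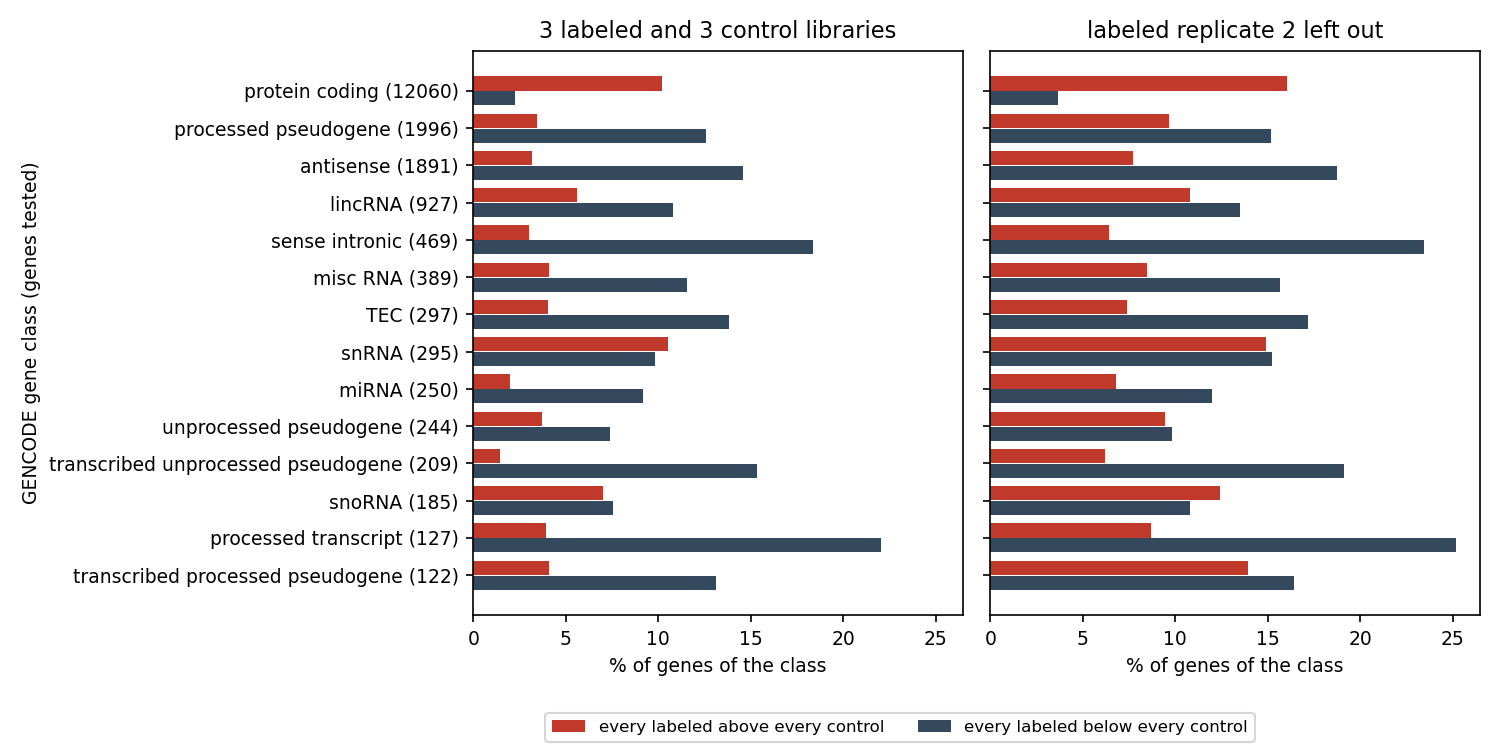
Share of the genes of each GENCODE class, in percent, for which every CD28 labeled library lay above (red) or below (dark) every control, with all 6 libraries (left) and with labeled replicate 2 left out (right); the number of genes tested follows each class name. Protein-coding genes have the longer bar above the controls in both panels, and most other classes, antisense and sense-intronic genes among them, the longer bar below.

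Level moved with these classes. In 10 bins of the genes by mean log2 FPKM, the median difference went from -0.37 in the lowest to 0.23 in the highest, and without replicate 2 from 0.01 to 0.21. Among genes with a mean log2 of 1 to 3, the medians were 0.05 for 4608 protein-coding and -0.31 for 822 antisense genes, and 0.05 and -0.14 without replicate 2. The part of level and of the 0 values of replicate 2 in the class difference was not tested beyond these values. In the PDGFR libraries the antisense median was -0.03, in Lyn11 -0.03 and in Lck -0.03. In that order, sense-intronic genes were at -0.13, -0.04 and -0.04, and processed pseudogenes at 0.07, -0.01 and 0.00. At a mean log2 of 1 to 3, the sense-intronic median was -0.26 with PDGFR, beside -0.34 with CD28 (-0.21 without replicate 2).

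The other constructs have their own controls, so their differences for the same genes share no library with those of CD28. The U1 median was 2.70 with PDGFR, 2.81 with Lyn11 and 2.61 with Lck. RNU1-2 differed by 4.65, 3.36 and 3.01, RNVU1-15 by 2.75, 2.80 and 3.17, MIR5087 by 2.39, 2.85 and 2.32, and ENSG00000270022 by 4.05, 4.12 and 3.45, in that order. THUMPD3-AS1 differed by 0.81, 0.98 and 1.06. These values are of the size found with CD28, and the test of CD28 minus the mean of the inner-face constructs called none of them. That test called no gene at all (0%), in limma and in voom, with 1456 at an unadjusted p under 0.05. The genes that fell were chosen for their CD28 values, so values nearer to 0 elsewhere show nothing particular to CD28. RNU6-1176P differed by -3.91 with PDGFR (limma, adjusted p = 0.00472) and the Y RNA copy by 3.04 (adjusted p = 0.027). ERVFRD-1 (-0.67, adjusted p = 0.00339) and HOXA-AS2 (adjusted p = 0.00856) also fell with Lck. HOXA-AS2 differed by -0.24 with PDGFR, -0.37 with Lyn11 and -0.38 with Lck, and MIR3680-1 by -0.35, -0.39 and -0.23. CNNM3-DT, which rose with CD28, differed by 0.09, 0.83 and 0.58. Of the genes that changed with CD28, the Y RNA copy alone differed between constructs in a test.

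CD28 minus PDGFR, the difference between the outer-face constructs, called 3 genes (0.0152%), all lower with CD28. The Y RNA copy within MCM8 had 2, 0 and 0 reads in CD28 labeled and 9, 16 and 9 in CD28 control libraries, against 13, 1 and 9 and no read in PDGFR. Its difference between constructs was -6.54 ± 0.89 (limma, adjusted p = 0.00303). RN7SL306P, a 7SL pseudogene (chr7:128970734-128971029), had 4, 17 and 1 against 15, 7 and 12 with CD28, and 16, 22 and 24 against no read with PDGFR (-6.09 ± 0.90, adjusted p = 0.00671). RGS17P1, a pseudogene of a regulator of G protein signalling (chr13:40992779-40993331), had 10, 4 and 2 against 7, 19 and 12, and 17, 21 and 40 against no read (-6.48 ± 0.75, adjusted p = 0.000511). In all 3 the PDGFR controls were at 0 reads. The fitted sizes depend on the prior count there, and PDGFR labeled reads were at least 7.83-fold, 21.1-fold and 26.5-fold higher than the limit of 3 control reads.

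**Figure D5:**
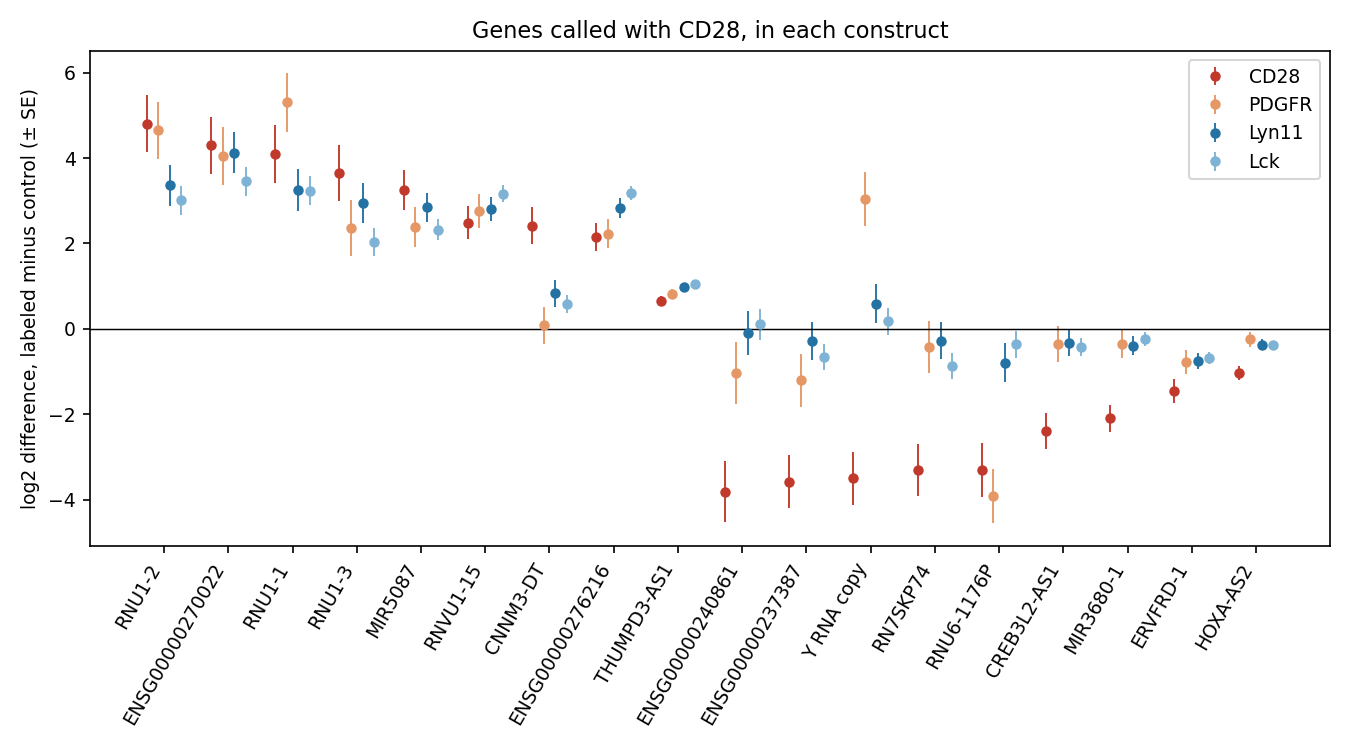
Difference in log2 FPKM, labeled minus control, with its standard error, for the 18 genes called with CD28, in CD28, PDGFR, Lyn11 and Lck. For the U1 genes, ENSG00000270022, MIR5087 and THUMPD3-AS1 all 4 constructs lie above 0, while RNU6-1176P is as low with PDGFR (-3.91) as with CD28, and the Y RNA copy is above 0 with PDGFR (3.04).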

How the data were processed

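The authors deposited log2 FPKM values for 25745 genes in 26 libraries. The submitters' processing notes list HISAT2 2.1.0, the build hg38 and edgeR. The read counter and its strand setting are not given in the sources used here. Genes were matched to GENCODE 29. Because the floors of 99.9% of the genes with a shared lowest value matched GENCODE 29 exon lengths, reads could be recovered for 25339 genes. Most values under 100 reads came out whole within 0.05 read, and all values were then rounded. For 1008 of these genes the length was searched so that values came out whole. Intervals from reads cover counting error only.

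All 26 libraries entered 1 limma fit (limma 3.58.1, R 4.3.3) of the deposited log2 values of 19763 genes, with a mean per group, a weight per construct and an intensity trend. The fit had 18 residual degrees of freedom, 20.94 after moderation. Each two-sided p was adjusted by Benjamini-Hochberg over the genes tested, and calls were made at 0.05. No pseudocount was added to the deposited values. Leaving out 1 library, other weights, scalings, filters, voom on recovered reads and a replicate block were alternatives. The fit was also run on simulated normal noise with the spread scaled by construct. That simulation held no library of low complexity and no floor of the values, so it does not cover these features of the data. Replicate pairs differed by a chi-square of 17.39 to 45.5 per gene, so none was counted as a duplicate.

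Genes were named by rule: those called, up to 15 in each direction; up to 10 in each direction with a mean log2 of at least 1 and p under 0.01 that were called without labeled replicate 2; called list members, otherwise the 4 of highest mean; CD28; and up to 5 called between constructs. The members, lists, weights and rule were chosen with earlier results of these data known.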

Additional observations from a re-analysis of the deposited data

Results flagged for a closer look

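The Y RNA copy ENSG00000207380, RN7SL306P and RGS17P1 differed between the outer-face constructs in the test of the difference itself. CD28 minus PDGFR was -6.54, -6.09 and -6.48 on the log2 scale for them, in that order. In each the 3 PDGFR control libraries had no read, and the CD28 controls had 7 to 19. The 3 remained called when any 1 CD28 library was left out, and none was called with voom on recovered reads, with the replicate block or when the 2 constructs were fitted without the others. The filter at all 6 CD28 libraries left them out of the test, and quantile normalization kept the Y RNA copy alone. Whether the 0 reads are a property of those cells or of those libraries was not tested.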

How the results depend on the processing

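Counts of called genes depended on the estimate of spread. Against 18 for CD28, equal weights gave 104, a weight per library 106, the 6 libraries alone 0, and 1 FPKM added before the logarithm 34. Leaving out 1 library gave 2 to 38 (without labeled replicates 1, 2 and 3: 38, 31 and 15; without controls 1, 2 and 3: 2, 5 and 6). Chosen after seeing the data, median centring without labeled replicate 2 gave 33 and equal weights without it 47. Median centring (19), quantile normalization (18), filters at all 6 libraries (13) or none (14) and voom (17, of which 7 shared) stayed within 1.5 times, and voom moved the median of all genes from 0.04 to -0.12.

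For CD28 minus PDGFR, 3 became 7 with equal weights, 9 with a weight per library, 0 with those constructs alone, with the stricter filter and with voom, 9 with equal weights without labeled replicate 2, and 3 to 5 when 1 library was left out. For CD28 minus the inner-face mean, 0 became 31 with a weight per library, 1 with those constructs alone, 1 with the stricter filter, 3 with 1 FPKM added, and 0 to 18 when 1 library was left out (18 without labeled replicate 1, 3 without 3). The causes were not tested.

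With replicate number as a block, 1 gene was called for CD28 and 0 for CD28 minus PDGFR. Same-numbered libraries deviated together at 0.0376, 0.145 and -0.09, so the numbers were not taken as pairs.

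MIR5087 was called under 15 of 18 alternatives, RNU1-2 under 14 of 17, RNVU1-15 under 14 of 18, THUMPD3-AS1 and ERVFRD-1 under 8 of 18, RNU6-1176P under 5 of 17 and ENSG00000240861 under 4 of 17. No named gene called changed sign. At 11.48 to 15.3 M reads per library, genes of under about 10 reads allow no finer statement than their counts.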
